A study of Homo sapiens with 9 samples.

Results

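The comparison is of DNMT1 knockdown directly with DNMT3B knockdown in HT29, the label of an established line from a human colorectal cancer. All 3 libraries of each knockdown were used, 6 of the 9 in the series, and every gene passing a filter on low counts was compared, 16475 of the 25886 symbols in the count table. The 3 Control libraries were not in the test and are given only as levels. Total RNA had been sequenced after removal of rRNA. Per the labels, both knockdowns were stable, made with lentivirus and selected with puromycin at 1 µg/ml for 3 passages, and the Control cells are also labelled as puromycin selected. The count column of the Control cells carries the tag shCTR. The number and sequence of the hairpins, and whether each knockdown is a pool or 1 clone are not stated in the labels, so a difference between the groups cannot be told apart from a difference between hairpins or between derived lines. Nothing in the labels says that the 3 libraries of a group came from separate cultures, so the p-values measure the spread among these 3 only, and that spread may be technical.

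DNMT1 is the maintenance DNA methyltransferase, which copies methylation of CpG sites onto the new strand after replication, guided by UHRF1. DNMT3B, with its relative DNMT3A, places methylation at sites that had none. In colorectal cancer cells the enzymes are known to share part of the work of keeping promoters methylated, and loss of DNMT1 is also known to disturb cell division and to expose transcripts that interferon pathways sense. The series names both enzymes as targets, and the direct comparison asks where the transcriptomes of the 2 knockdowns part.

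The targeted mRNAs stood as labelled. DNMT1 (chr19:10133346-10194953, GRCh38) was at 248, 249 and 257 counts per 1e6 counts (CPM) in the DNMT1 knockdown libraries and at 490, 492 and 488 CPM in the DNMT3B knockdown libraries. It was 1.95-fold lower with DNMT1 knockdown, a log2 difference of -0.96 ± 0.035 (standard error, adjusted p = 6.39e-18). DNMT3B (chr20:32762385-32809356) was at 63.9, 63.9 and 64.7 CPM with DNMT1 knockdown and at 32.9, 28 and 30.9 CPM with DNMT3B knockdown, 2.09-fold higher with DNMT1 knockdown (log2 difference 1.06 ± 0.049, adjusted p = 1.18e-15). Each enzyme's mRNA was therefore low in the cells labelled as its knockdown, with no overlap between groups. The Control means were 460 ± 9.37 CPM for DNMT1 (SD, n = 3) and 61.6 ± 1.21 CPM for DNMT3B. DNMT3A (chr2:25227874-25342590), which no hairpin was labelled to target, was at 36.3, 37 and 38.4 CPM with DNMT1 knockdown and at 24.4, 23.4 and 26.5 CPM with DNMT3B knockdown, 1.50-fold higher with DNMT1 knockdown (log2 difference 0.58 ± 0.054, adjusted p = 1.21e-09). Its Control level was 36.2 ± 0.95 CPM, so that it was the DNMT3B knockdown libraries that stood below the others. For each of these 3 genes the exact two-sided permutation test over the 6 libraries gave p = 0.1, the smallest that 3 against 3 can give.

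The libraries held 23.4 to 24.2 M counts (M is 1e6) with DNMT1 knockdown, 18.8 to 26 M with DNMT3B knockdown and 26.9 to 33.7 M in Control. A count of 0 allows up to 3 counts, 0.116 to 0.16 CPM in the 6 libraries, and this floor covers counting error only. Replicates differed by more than counting noise, so each counted once. Colon epithelial markers were partly missing from cells labelled HT29: KRT8, EPCAM and CDX2 were among those detected, but 7 of 16 were below 1 CPM in every library, CDX1, LGALS4, CEACAM5 and CDH17 among them. Leukocyte markers summed to 24 to 25.2 CPM with DNMT1 knockdown and 38.3 to 43.4 CPM with DNMT3B knockdown, with 9 of 13 below 1 CPM in every library. CD68, which many cell types express in lysosomes, made up most of that sum at 18 ± 0.79 against 33 ± 2.43 CPM. Stromal markers summed to 29.5 to 34.1 against 39.5 to 42 CPM. Of these 11, 8 were below 1 CPM in every library and 4 were at 0 counts (COL1A2, COL3A1, DCN and POSTN). COL1A1 made up most of the stromal sum, at 21.5 against 27.6 CPM. Endothelial markers summed to 12 to 14.4 against 13.6 to 15.6 CPM, with 6 of 10 below 1 CPM in every library. Their part in the differences described here was not tested.

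The direct comparison called 7482 of the 16475 tested genes at an adjusted p below 0.05, a share of 45.4%. Of these, 3879 were higher with DNMT1 knockdown (23.5% of tested genes) and 3603 were lower (21.9%). Most differences were small. The median absolute log2 difference of the called genes was 0.268, and 48.7% of them were under 1.2-fold apart. Differences of 2-fold or more were called in 288 genes (1.75%), 121 higher and 167 lower with DNMT1 knockdown, and 85 of the 288 had a mean of 2 CPM or more over the 6 libraries. The median log2 difference over all tested genes was -0.0054. The libraries of the 2 groups did not overlap in 8663 genes (52.6%), 7116 of which were called.

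**Figure D1:**
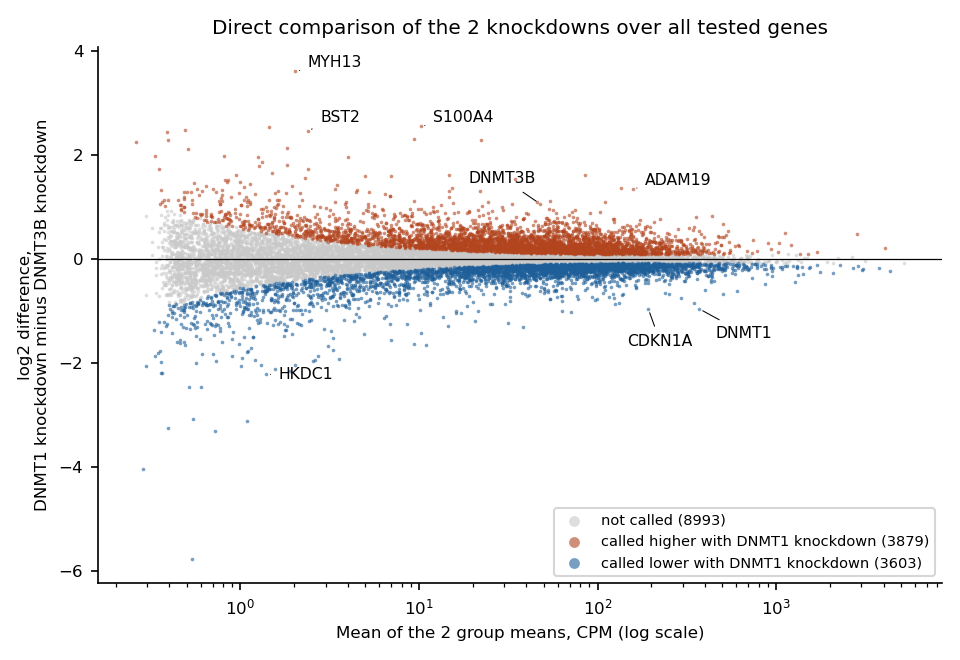
Each point is 1 of the 16475 tested genes. The x axis is the mean of the 2 group means in CPM on a log scale and the y axis the log2 difference, DNMT1 knockdown minus DNMT3B knockdown. Coloured points are the 3879 genes called higher and the 3603 called lower, and differences beyond 1 on the log2 scale lie mostly at low CPM.

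Control cells often lay between the knockdowns. Among the 3879 genes called higher with DNMT1 knockdown, the mean Control level was between the 2 knockdown means for 1897 (48.9%), above both for 1191 (30.7%) and below both for 791 (20.4%). Among the 3603 called lower with DNMT1 knockdown, it was between for 2027 (56.3%), below both for 945 (26.2%) and above both for 631 (17.5%). These positions are of means and carry no test.

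The largest differences among genes of at least 2 CPM in the higher group, with no overlap between libraries, covered a wide range of functions. MYH13 (chr17:10300865-10373006), a muscle myosin heavy chain, was at 3.09, 4.3 and 3.91 CPM with DNMT1 knockdown and at 0.411, 0.216 and 0.269 CPM with DNMT3B knockdown, 12.1-fold higher (log2 difference 3.60 ± 0.24, adjusted p = 2.46e-12). It lies in a cluster of like myosin genes, so its counts are uncertain. S100A4 (chr1:153543621-153545806), a calcium-binding protein known from cell motility, was at 18.7, 16.9 and 16.7 CPM against 2.22, 3.52 and 3.31 CPM, 5.84-fold higher with DNMT1 knockdown. Its Control mean, 4.33 CPM, was near the DNMT3B knockdown libraries. DHRS2 (chr14:23630115-23645639), a short-chain dehydrogenase, was at 36, 38.1 and 36.8 CPM against 7.27, 7.63 and 7.85 CPM, 4.87-fold higher (adjusted p = 2.65e-20), and both knockdowns were above its Control mean of 2.86 CPM. AQP3 (aquaporin 3, a water and glycerol channel) was at 14.2, 16.6 and 16 CPM against 3.08, 3.25 and 3.15 CPM, 4.93-fold higher. A further 3 genes of this set were interferon-stimulated (BST2, IFI27 and OAS1) and are described with their list. The remaining ones were ALDH1L1, a folate enzyme (5.75-fold), GRHL3, an epithelial transcription factor (3.87-fold), and the long non-coding RNA LINC00565 (3.61-fold).

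Among the 10 largest differences in the other direction, the levels with DNMT1 knockdown were at most 2.04 CPM. HKDC1, a hexokinase-like enzyme, was at 0.371, 0.596 and 0.499 CPM with DNMT1 knockdown and at 2.14, 2.38 and 2.39 CPM with DNMT3B knockdown, 4.67-fold lower. MAT1A, the liver form of the enzyme that makes S-adenosylmethionine, the methyl donor of DNA methylation, was at 1.65, 1.45 and 1.33 CPM against 5.63, 5.74 and 5.54 CPM, 3.80-fold lower (adjusted p = 7.93e-12). Control cells had 1.34 CPM of MAT1A, so that only the DNMT3B knockdown libraries were high. MUC16, a large mucin gene, was at 1.4, 1.11 and 2.04 CPM with DNMT1 knockdown against 5.54, 4.49 and 5.23 CPM, 3.38-fold lower, with a Control mean of 0.76 CPM, and MUC19, another mucin gene, was 4.47-fold lower. The muscle-associated genes DES (desmin, 4.32-fold), MYPN (myopalladin, 3.92-fold) and SNTG2 (a syntrophin, 3.67-fold) were lower with DNMT1 knockdown as well. The others were SUCNR1, the succinate receptor (4.14-fold), TMEFF2 (4.11-fold) and the caveolar protein CAVIN2 (3.86-fold).

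**Figure D2:**
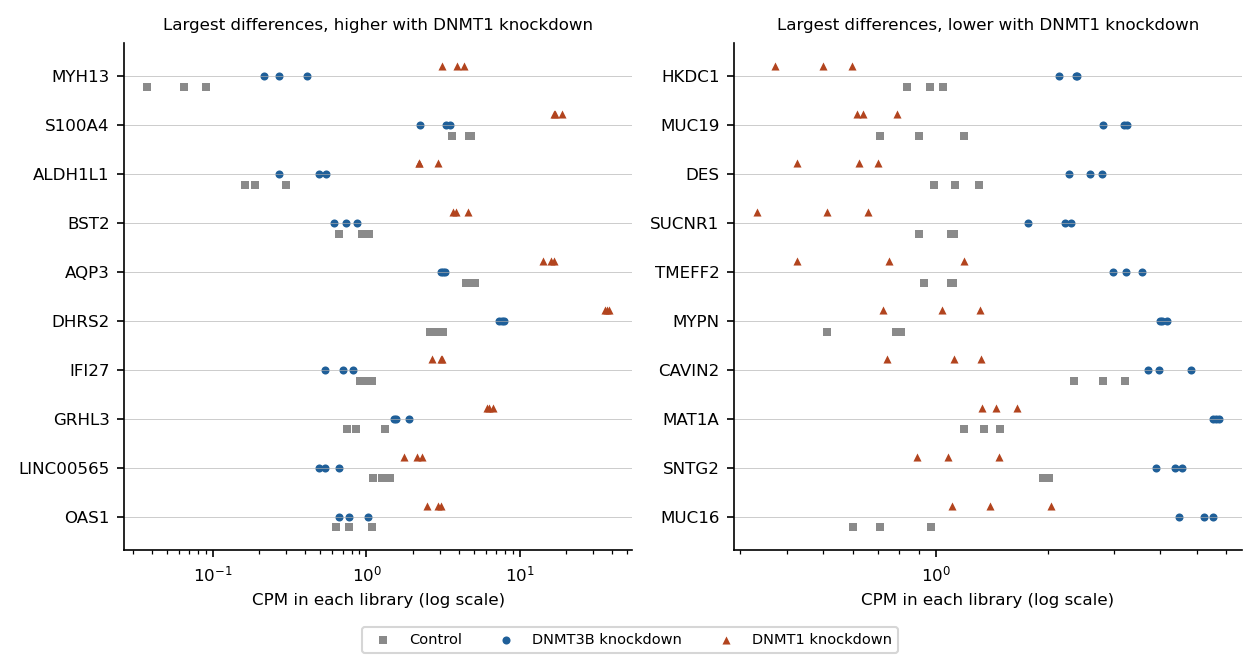
Each symbol is 1 library's level in CPM on a log scale (triangles, DNMT1 knockdown; circles, DNMT3B knockdown; squares, Control) for the 10 largest differences in each direction. The genes were chosen for this gap. Control squares lie nearer the circles than the triangles for the genes on the left other than LINC00565, as for S100A4 at 4.33 CPM, and over the triangles for MAT1A on the right.

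Large differences were also called among genes of high level, with a mean of at least 50 CPM. TIAM1, an exchange factor that activates the GTPase RAC, was at 201, 194 and 191 CPM with DNMT1 knockdown and at 74.9, 74.6 and 78.3 CPM with DNMT3B knockdown, 2.57-fold higher. ADAM19, a membrane metalloprotease, was at 220, 228 and 229 CPM against 91.3, 88.4 and 87.5 CPM, 2.54-fold higher. For TIAM1 and ADAM19 the Control means of 84.5 and 78.9 CPM were close to the DNMT3B knockdown libraries. The serotonin receptor gene HTR7 (2.15-fold), the matrix proteoglycan gene VCAN (2.13-fold) and the transcription factor gene TBX3 (1.95-fold) were higher too.

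Abundant genes that were lower with DNMT1 knockdown, besides DNMT1 itself, included members of stress pathways. CDKN1A (chr6:36676463-36687332), the cyclin-dependent kinase inhibitor p21, was at 124, 135 and 133 CPM with DNMT1 knockdown and at 259, 254 and 250 CPM with DNMT3B knockdown, 1.95-fold lower (log2 difference -0.96 ± 0.038, adjusted p = 5.01e-17). GDF15, a secreted stress cytokine, was at 92.9, 95.4 and 92.3 CPM against 167, 177 and 165 CPM, 1.81-fold lower. In Control cells CDKN1A was at 147 CPM and GDF15 at 101 CPM, nearer the DNMT1 knockdown libraries. SLC7A11, the cystine importer that feeds glutathione synthesis, was at 91.7, 86.7 and 87.9 CPM against 159, 165 and 160 CPM, 1.82-fold lower, with Control above both at 190 CPM. SYTL3, a vesicle trafficking protein gene (2.03-fold), and NAV3, a microtubule-associated protein gene (2.02-fold), were the other members of the set.

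The p53 target list had the highest share of members called lower among the lists with at least 10 tested members. p53 is the transcription factor that answers DNA damage and other stress with cell cycle arrest, repair and apoptosis. Of 36 tested members, 29 were lower with DNMT1 knockdown (80.6%) and 4 higher (11.1%), beside 21.9% and 23.5% of all tested genes. These shares of all tested genes stand beside every list below. The median log2 difference of the p53 list was -0.37 beside -0.0054 over all tested genes. The summed level of the list was 2208 to 2225 CPM with DNMT1 knockdown and 2909 to 3005 CPM with DNMT3B knockdown. The members with the smallest adjusted p were CDKN1A, GDF15 and MDM2, the ubiquitin ligase that p53 induces and that in turn degrades it. MDM2 was at 252, 242 and 246 CPM against 436, 460 and 446 CPM, 1.81-fold lower (adjusted p = 1.46e-16), with a Control mean of 334 CPM between. Of the 33 called members, 23 had their Control mean between the knockdowns, 9 below both and 1 above both. TP53I11 (log2 difference 0.33), TP53INP1 (0.23) and the receptor gene EDA2R (1.47, at 1.25 against 0.434 CPM) stood the other way.

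Genes of mitosis were lower with DNMT1 knockdown too. In the G2/M list, 33 of 45 tested members were lower (73.3%) and 1 higher (2.22%), and the median log2 difference was -0.23. The list summed to 6677 to 6921 CPM with DNMT1 knockdown and 7965 to 8104 CPM with DNMT3B knockdown. CENPE, the kinesin that carries chromosomes at the kinetochore, was at 41.7, 37.3 and 36.9 CPM against 62.3, 61.7 and 59.9 CPM, 1.58-fold lower (adjusted p = 8.36e-12). PLK1, the polo-like kinase that drives entry into mitosis, was at 207, 208 and 218 CPM against 301, 284 and 299 CPM, 1.40-fold lower (adjusted p = 1.62e-11). KIF2C, a microtubule-depolymerising kinesin, was 1.41-fold lower. In bulk RNA, fewer cells in mitosis and less of these mRNAs per cell cannot be told apart. The phosphatase CDC25B was the member that was higher, at 293 ± 15.3 against 255 ± 6.84 CPM. Control means lay between the knockdowns for 25 of the 34 called members, as for KIF2C at 121 CPM.

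Promoters of mitotic genes are known for the CHR, an element with the core TTTGAA to which the DREAM and MYB-MuvB complexes bind. The 250 bases before the start of PLK1 (chr16:23678639-23678888, plus strand) and of ANLN, the gene of the cytokinesis protein anillin (chr7:36389612-36389861, plus strand), are shown for that core, in capitals where it stands on either strand. Sequences are from RefSeq, build GRCh38.p14.
PLK1: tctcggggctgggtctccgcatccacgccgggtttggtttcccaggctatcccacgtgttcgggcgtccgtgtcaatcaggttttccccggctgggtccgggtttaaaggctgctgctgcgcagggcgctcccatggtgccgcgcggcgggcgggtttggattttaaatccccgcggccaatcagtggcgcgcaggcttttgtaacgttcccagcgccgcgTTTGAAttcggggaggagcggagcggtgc
ANLN: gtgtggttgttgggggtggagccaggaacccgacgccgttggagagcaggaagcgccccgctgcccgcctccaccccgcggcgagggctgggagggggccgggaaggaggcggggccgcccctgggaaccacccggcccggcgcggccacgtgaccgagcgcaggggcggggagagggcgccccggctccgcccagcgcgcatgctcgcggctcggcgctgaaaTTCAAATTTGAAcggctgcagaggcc
In ANLN the capitals hold a match on each strand, side by side. Of the 38 members with a RefSeq promoter window (300 bases, 250 before to 50 after the start), 28 held TTTGAA on either strand (73.7%), against 1757 of 12748 tested genes with a window (13.8%) and 15.2% of all windows of the table. The core did not sort the members by their difference. It was in 20 of 28 lower members (71.4%) and in 8 of 9 that were not called (88.9%). In the S phase list it was in 2 of 44 (4.55%).

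In the S phase and DNA replication list, which was not tested against the mitotic one, 14 of 52 members were higher with DNMT1 knockdown, 4 lower and 34 not called, beside 23.5% higher and 21.9% lower of all tested genes, with a median log2 difference of 0.03. RFC5, a clamp loader subunit, was at 73.4, 73.5 and 76.3 CPM against 52.8, 50.9 and 50.7 CPM, 1.44-fold higher. RPA2, of the single-strand binding complex, was at 64.3, 62.8 and 62.5 CPM against 43.5, 42.9 and 43.7 CPM, 1.46-fold higher, and RRM2, a ribonucleotide reductase subunit, was 1.24-fold higher. For these 3 genes Control was above both knockdowns, as for 14 of the 18 called members. Replication-dependent histone genes have mRNAs that lack a poly(A) tail and are kept by rRNA depletion. They were higher for 22 of 41 tested members (53.7%) and lower for 0, with a median log2 difference of 0.14. DESeq2 called 14 of them higher. Their summed levels overlapped, 5092 to 5224 CPM with DNMT1 knockdown and 4455 to 5134 CPM with DNMT3B knockdown, and values of single copies are uncertain because histone genes are near-identical.

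**Figure D3:**
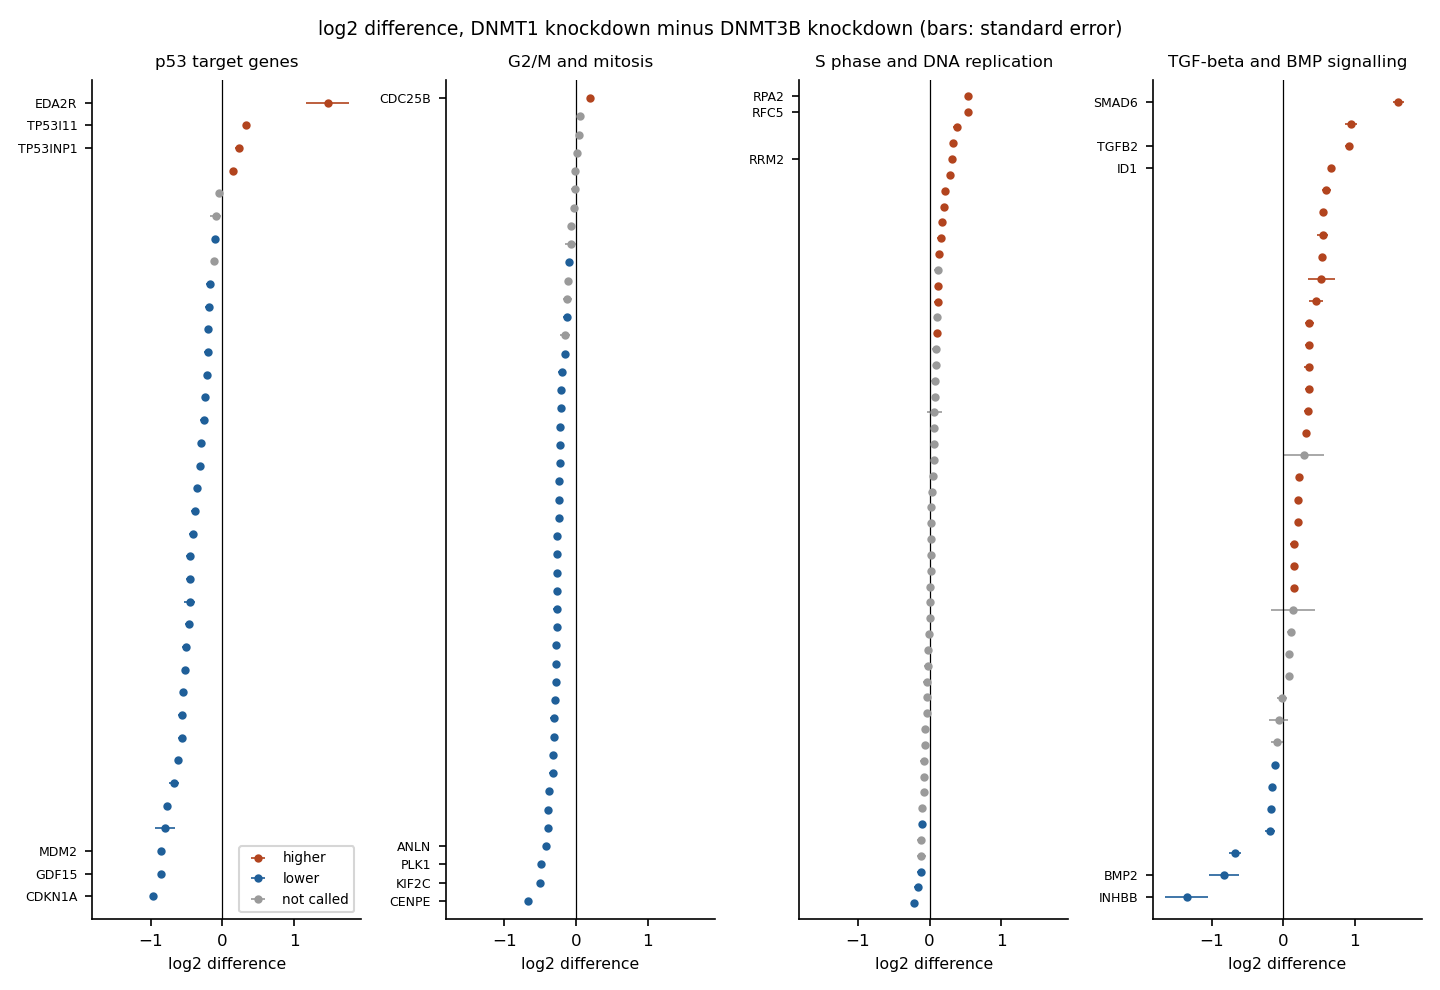
Each point is the log2 difference of 1 tested list member, DNMT1 knockdown minus DNMT3B knockdown, with its standard error as a bar (orange, called higher; blue, called lower; grey, not called), with the names of the members described in the text. The p53 and G2/M panels lie mostly left of 0, with 29 of 36 and 33 of 45 members called lower, the S phase panel lies about 0, and the TGF-beta and BMP panel lies mostly right of 0, with 22 of 37 called higher.

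Stress and amino acid genes followed with more members on the lower side. Cells use ATF4 targets when amino acids run short or the endoplasmic reticulum is stressed. In that list 18 of 30 tested members were lower with DNMT1 knockdown (60%) and 3 higher (10%), with a median log2 difference of -0.23. Besides SLC7A11, ATF3 was at 12, 10.8 and 10.8 CPM against 20.8, 23.8 and 24.9 CPM, 2.06-fold lower, and STC2 at 78.5 ± 0.28 against 109 ± 2.35 CPM. The glutamine carrier gene SLC1A5 stood the other way, at 329 ± 8.45 against 262 ± 8.15 CPM. Aminoacyl-tRNA synthetase genes, some of them ATF4 targets too, were lower for 13 of 20 (65%) and higher for 1 (5%). AARS1, GARS1 and KARS1 were each lower, GARS1 at 281 ± 6.12 against 338 ± 8.06 CPM. In the NRF2 and glutathione list 11 of 26 were lower (42.3%) and 4 higher (15.4%). The heme oxygenase gene HMOX1 was at 28.5, 32.3 and 31.1 CPM against 50.8, 50.2 and 50.1 CPM, 1.64-fold lower, and the thioredoxin reductase gene TXNRD1 was 1.54-fold lower, while ABCC3 and NQO1 were higher at 1.30-fold and 1.12-fold. Heat shock genes were lower for 11 of 23 (47.8%), led by HSPA4L (1.41-fold) and DNAJB4 (1.53-fold), with a median log2 difference of -0.09. HSPB1 was the 1 higher (4.35%), at 445 ± 19.8 against 367 ± 4.73 CPM.

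Endoplasmic reticulum chaperones and lipid synthesis genes stood on the other side. In the chaperone and unfolded protein response list 13 of 27 tested members were higher with DNMT1 knockdown (48.1%) and 1 lower (3.7%). The median log2 difference was 0.12. CANX (calnexin) was at 854, 831 and 821 CPM against 643, 675 and 643 CPM, 1.28-fold higher. HYOU1 (330 ± 5.39 against 276 ± 8.88 CPM) and the transcription factor gene XBP1 (1.23-fold) were higher too, and CALR (calreticulin) was 1.12-fold lower. Control was above both knockdowns for 10 of the 14 called members. Of 34 genes for making cholesterol and fatty acids 17 were higher (50%, beside 23.5% of all tested genes). Another 8 were lower (23.5%, near the 21.9% of all tested genes). Control was above both for 19 of the 25 called. The desaturase gene FADS1 was at 137, 134 and 136 CPM against 93.6, 92.3 and 94.2 CPM (1.45-fold), HMGCS1, of the mevalonate pathway, was 1.42-fold higher and its regulator SREBF2 was 1.34-fold higher. FASN (fatty acid synthase) was 1.18-fold lower, at 3970 ± 170 against 4675 ± 157 CPM.

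Interferon-stimulated genes are the antiviral programme that interferon signalling switches on. They were higher with DNMT1 knockdown for 19 of 42 tested members (45.2%) and lower for 5 (11.9%). Their median log2 difference was 0.11, and 5 members differed at least 2-fold. BST2 (chr19:17402939-17405630), tetherin, which holds budding viruses at the cell surface, was at 4.57, 3.83 and 3.66 CPM against 0.616, 0.866 and 0.731 CPM, 5.51-fold higher (log2 difference 2.46 ± 0.19, adjusted p = 2.28e-11). IFI27 was at 2.68, 3.07 and 3.12 CPM against 0.698, 0.812 and 0.539 CPM, 4.39-fold higher (adjusted p = 1.45e-09). OAS1, a sensor of double-stranded RNA, was at 2.47, 2.94 and 3.04 CPM against 0.657, 1.03 and 0.769 CPM, 3.50-fold higher (adjusted p = 2.57e-08). Control means of these 3 were 0.875, 0.984 and 0.83 CPM, close to the DNMT3B knockdown libraries. DDX60L (1.25-fold), HERC5 (1.25-fold) and TRIM22 (2.05-fold, at 0.571 against 1.18 CPM) were lower. The list summed to 1779 to 1805 CPM with DNMT1 knockdown and 1660 to 1677 CPM with DNMT3B knockdown.

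The element through which these genes are known to answer interferon has a repeated GAAA core, searched here as GAAA, any 2 bases and GAAA again. The 250 bases before the start of BST2 (chr19:17405631-17405880, minus strand) and of 1 of the 2 starts of IFI27 (chr14:94110486-94110735, plus strand) are shown because they lie before the list members with the largest differences. Capitals mark matches on either strand.
BST2: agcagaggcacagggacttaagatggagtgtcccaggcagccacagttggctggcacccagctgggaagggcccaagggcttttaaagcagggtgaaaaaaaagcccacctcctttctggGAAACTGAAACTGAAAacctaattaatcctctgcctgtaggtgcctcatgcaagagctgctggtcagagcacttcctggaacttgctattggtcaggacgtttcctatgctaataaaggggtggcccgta
IFI27: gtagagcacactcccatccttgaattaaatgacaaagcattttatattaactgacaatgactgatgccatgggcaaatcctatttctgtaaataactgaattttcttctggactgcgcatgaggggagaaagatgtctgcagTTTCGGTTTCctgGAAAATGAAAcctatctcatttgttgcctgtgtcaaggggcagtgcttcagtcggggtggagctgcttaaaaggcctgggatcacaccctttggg
In BST2 the capitals hold 2 overlapping matches, and in IFI27 a match on the opposite strand is followed by 1 on the strand shown. Among list members with a RefSeq window, 24 of 34 held the core (70.6%), against 482 of 12748 tested genes (3.78%) and 3.57% of all windows. Again the core did not sort the members: it was in 12 of 16 higher members (75%) and in 10 of 15 that were not called (66.7%).

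Of 19 tested genes of antigen presentation on MHC class I, 9 were higher (47.4%) and 5 lower (26.3%), with a median log2 difference of 0.04. The lower share was near the 21.9% of all tested genes, of which 23.5% were higher. HLA-B, at 147 ± 8.36 against 127 ± 7.02 CPM, was 1.16-fold higher and HLA-E 1.17-fold higher, and counts of these like genes are uncertain. The transactivator gene NLRC5 was 1.40-fold lower and the peptide transporter gene TAP2 1.18-fold lower. The lower count was 3 with DESeq2, without DNMT1 knockdown replicate 1 and without DNMT3B knockdown replicate 2. In the NF-kB list 8 of 22 were lower (36.4%) and 2 higher (9.09%), with a median log2 difference of -0.16, and 5 were lower with DESeq2. BIRC3, an inhibitor of apoptosis, was at 5.64, 4.13 and 4.79 CPM against 8.75, 8.17 and 10.2 CPM, 1.88-fold lower, and TNFAIP3, the feedback inhibitor A20, was 1.72-fold lower.

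In TGF-beta and BMP signalling, ligands act through SMAD proteins and inhibitory SMADs feed back. Its components were higher for 22 of 37 tested members (59.5%) and lower for 7 (18.9%, near the 21.9% of all tested genes). Their median log2 difference was 0.21. Among ligands, TGFB2 was at 33.4, 33.1 and 34 CPM with DNMT1 knockdown and at 17.4, 18.1 and 17.9 CPM with DNMT3B knockdown, 1.88-fold higher (log2 difference 0.91 ± 0.055, adjusted p = 2.06e-13). Control cells had 1.77 CPM, so that both knockdowns were far above them. The ligand genes INHBB (2.55-fold) and BMP2 (1.77-fold) were lower, both at no more than 2.12 CPM in the knockdown libraries. Among inhibitors and targets, SMAD6 was at 21.2, 22.9 and 22 CPM against 7.43, 7.36 and 6.93 CPM, 3.05-fold higher (log2 difference 1.61 ± 0.073, adjusted p = 7.92e-16), with Control between at 12.5 CPM. The BMP target ID1 was at 214, 216 and 198 CPM against 128, 137 and 130 CPM, 1.59-fold higher.

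Other signalling lists held members on both sides. For WNT signalling and intestinal stem cell genes 11 of 25 were higher (44%) and 6 lower (24%), with a median log2 difference of 0.12. The lower share was near the 21.9% of all tested genes, of which 23.5% were higher. CD44 was at 650, 614 and 658 CPM against 446, 432 and 446 CPM (1.45-fold higher), the crypt transcription factor gene SOX9 was 1.47-fold higher, and AXIN2, a feedback inhibitor that WNT signalling induces, was 1.50-fold higher. The WNT antagonists DKK1 (1.34-fold) and NKD2 (1.34-fold), and the stem cell marker PROM1 (1.24-fold), were lower. LGR5, named after its values were seen, was lower by the list's largest difference (log2 difference -2.05). It was at only 0.111 against 0.481 CPM, so this rests on few counts. In the Notch list 11 of 25 were higher (44%) and 4 lower (16%), with a median of 0.08. The receptor gene NOTCH3 was at 83.2, 94.5 and 88 CPM against 52.6, 47.1 and 49.1 CPM (1.78-fold higher). The coactivator gene MAML2 was 2.11-fold higher and the target gene HES1 1.71-fold higher. Another target gene, HEYL (1.17-fold), and the receptor gene NOTCH1 (1.11-fold) were lower. ATOH1 was 3.43-fold lower, at only 0.153 against 0.553 CPM.

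For MAPK early and feedback genes 20 of 35 tested members were lower with DNMT1 knockdown (57.1%) and 8 higher (22.9%). The higher share was near the 23.5% of all tested genes, and the median log2 difference was -0.16. The members on the higher side included feedback phosphatases of ERK. DUSP4 was at 278, 284 and 279 CPM against 166, 166 and 162 CPM (1.70-fold) and DUSP6 was 1.42-fold higher, yet DUSP5, of the same family, was 1.46-fold lower. FOSL1, an AP-1 subunit, was at 207, 221 and 231 CPM against 361, 371 and 377 CPM (1.68-fold lower), and the receptor gene EPHA2 was 1.57-fold lower. In the YAP and TEAD list 9 of 24 were higher (37.5%) and 12 lower (50%). TGFB2 (1.88-fold), also a member of the TGF-beta list, and the factors YAP1 (1.39-fold) and TEAD1 (1.26-fold) were higher, and AMOTL2 (1.45-fold), CCN1 (1.79-fold) and LATS2 (1.47-fold) were lower.

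In the list of collagens, laminins and integrins 17 of 39 were higher with DNMT1 knockdown (43.6%) and 8 lower (20.5%). The lower share was near the 21.9% of all tested genes, of which 23.5% were higher. The median log2 difference was 0.17. The higher members with the smallest adjusted p were integrin chains. ITGB8, which is known to release TGF-beta from its latent form, was at 20.8, 21 and 21.5 CPM against 8.54, 8.5 and 8.58 CPM (2.47-fold), ITGB5 was 1.75-fold higher, and ITGB4, the integrin chain of hemidesmosomes, was at 598, 630 and 637 CPM against 405, 380 and 386 CPM (1.59-fold). LAMB3 and LAMA3, chains of the laminin that this integrin binds, were lower. LAMB3 was at 19.8, 24.3 and 21.7 CPM against 54.9, 55.7 and 53.6 CPM (2.49-fold, adjusted p = 2.35e-16), and LAMA3 was 1.87-fold lower. Each class held members on both sides: the integrin ITGA5 was lower (log2 difference -0.29) and the laminin LAMA4 higher (0.68), both named after their values were seen. In the epithelial-mesenchymal list 12 of 28 were higher (42.9%) and 4 lower (14.3%), with a median of 0.11. The higher members with the smallest adjusted p were the epithelial genes ITGB4, ITGA6 (1.49-fold) and CDH3 (1.23-fold), and the lower ones included SNAI1 (1.38-fold) and ZEB1 (1.41-fold), repressors of epithelial genes.

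Among genes tied to DNA methylation, the machinery and promoter-methylated lists did not lean one way. In the list of the methylation machinery, readers and demethylases 8 of 30 were higher and 8 lower (26.7% each). All tested genes had 23.5% higher and 21.9% lower. MBD3 was 1.28-fold higher, and the demethylation glycosylase TDG (1.33-fold) and the reader MBD1 (1.18-fold) were lower. Of 34 tested genes known for promoter methylation in colorectal cancer, 7 were higher with DNMT1 knockdown and 9 lower, near the shares of all tested genes in count, with a median log2 difference of 0.04. CDKN2A (chr9:21967752-21995324), which encodes the cell cycle inhibitors p16 and p14ARF under 1 symbol, was at 59.3, 66.9 and 60.3 CPM with DNMT1 knockdown and at 29.2, 28.4 and 29.8 CPM with DNMT3B knockdown (2.13-fold, adjusted p = 1.18e-15). The Control mean of 63.8 CPM was at the level of the DNMT1 knockdown libraries. Its neighbour CDKN2B, for the inhibitor p15, stood the other way, at 10.3, 10.2 and 10.8 CPM against 14.9, 17.1 and 15.8 CPM (1.52-fold lower). ADAMTS14 was at 28.7, 31.8 and 30.2 CPM against 15.5, 15.3 and 14.3 CPM (2.02-fold), and both were above the Control mean of 6.66 CPM. Imprinted genes did lean, with 13 of 31 higher (41.9%) and 4 lower (12.9%), and a median log2 difference of 0.09. The higher ones were led by TP73 (1.42-fold), KCNQ1 (1.93-fold) and GRB10 (1.23-fold). Endogenous retroviral genes were higher for 5 of 15 (33.3%) and lower for 2 (13.3%). ERV3-1 was higher, at 18.7 ± 1.43 against 12.2 ± 0.71 CPM. Germline genes were called in each direction for 2 of 12 (16.7%). The signs of the medians of the methylation machinery, promoter-methylated, retroviral and germline lists turned under at least 1 alternative setting.

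KRAB and other zinc finger genes with ZNF numbers were higher with DNMT1 knockdown for 135 of 392 tested members (34.4%) and lower for 57 (14.5%), with a median log2 difference of 0.07. ZNF704 was at 221, 225 and 227 CPM against 148, 141 and 151 CPM (1.53-fold), ZNF362 was 1.72-fold higher and ZNF134 2.31-fold higher. On the lower side ZNF804A was at 1.69, 1.7 and 1.54 CPM against 4.48, 3.95 and 4.19 CPM (2.57-fold). Chromosome 19, which holds many of these genes, had 29.7% of its 1097 tested genes higher and 18.9% lower, and a median log2 difference of 0.04. It was not alone: chromosome 18 had 30.4% higher and 21.7% lower, chromosome 9 28.3% and 19.3%, and chromosome 22 26.4% and 16.8%. Others leaned the other way, such as chromosome 5 with 19.1% higher and 24.1% lower. The part of the zinc finger genes in the chromosome 19 shares was not tested.

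Cytosolic ribosomal protein genes were lower with DNMT1 knockdown for 44 of 82 tested members (53.7%) and higher for 0. Their median log2 difference was -0.11. The count of lower members moved with single libraries, to 24 without DNMT3B knockdown replicate 2, 28 without DNMT1 knockdown replicate 2 and 29 without DNMT1 knockdown replicate 3, and the summed levels overlapped, 30200 to 31300 CPM against 30830 to 35820 CPM. RNA quality measures moved between the libraries as well. The summed level of the 7 tested genes of the RNA quality list was 5369 to 5533 CPM with DNMT1 knockdown and 5084 to 6353 CPM with DNMT3B knockdown. In that list 2 were lower and 0 higher, and 6 lower without DNMT3B knockdown replicate 1. RN7SL2, a small structural RNA with near-identical copies, was at 647, 666 and 623 CPM against 648, 843 and 730 CPM. DNMT3B knockdown replicate 2 was the shallowest library, at 18.8 M counts, and the pair of DNMT3B knockdown replicates 1 and 2 differed most, at a chi-square per degree of freedom of 3.52. The part of these in the ribosomal protein count was not tested. Among ribosomal protein genes RPL7L1 had the smallest adjusted p, at 159 ± 8.73 against 211 ± 12.7 CPM. Nuclear genes of oxidative phosphorylation were lower for 28 of 72 (38.9%) and higher for 1 (1.39%), with a median of -0.09. Without DNMT3B knockdown replicate 3, 18 were lower. Mitochondrial ribosomal proteins were lower for 22 of 78 (28.2%) and higher for 4 (5.13%), beside 21.9% and 23.5% of all tested genes. Proteasome subunits, named by the series' title through proteasome inhibition, were higher for 5 of 45 (11.1%, beside 23.5% of all tested genes). They were lower for 10 (22.2%), near the 21.9% of all tested genes. The lower count was 4 without DNMT1 knockdown replicate 2 or 3, 6 without DNMT3B knockdown replicate 2 and 5 without DNMT3B knockdown replicate 3, and the higher count was 9 without DNMT3B knockdown replicate 2. PSMB5, the subunit that bortezomib binds, was at 98.6, 95.2 and 85.6 CPM against 65.5, 80.6 and 70.1 CPM (1.30-fold higher), with a Control mean of 118 CPM. In the hypoxia and glycolysis list 15 of 35 were lower (42.9%) and 7 higher (20%, near the 23.5% of all tested genes). Without DNMT3B knockdown replicate 2, 11 were higher. CA9, a classic hypoxia target, was at 4.86, 4.73 and 5.03 CPM against 1.72, 2 and 2.04 CPM (2.54-fold higher), and HK2, which starts glycolysis, was 1.33-fold lower.

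**Figure D4:**
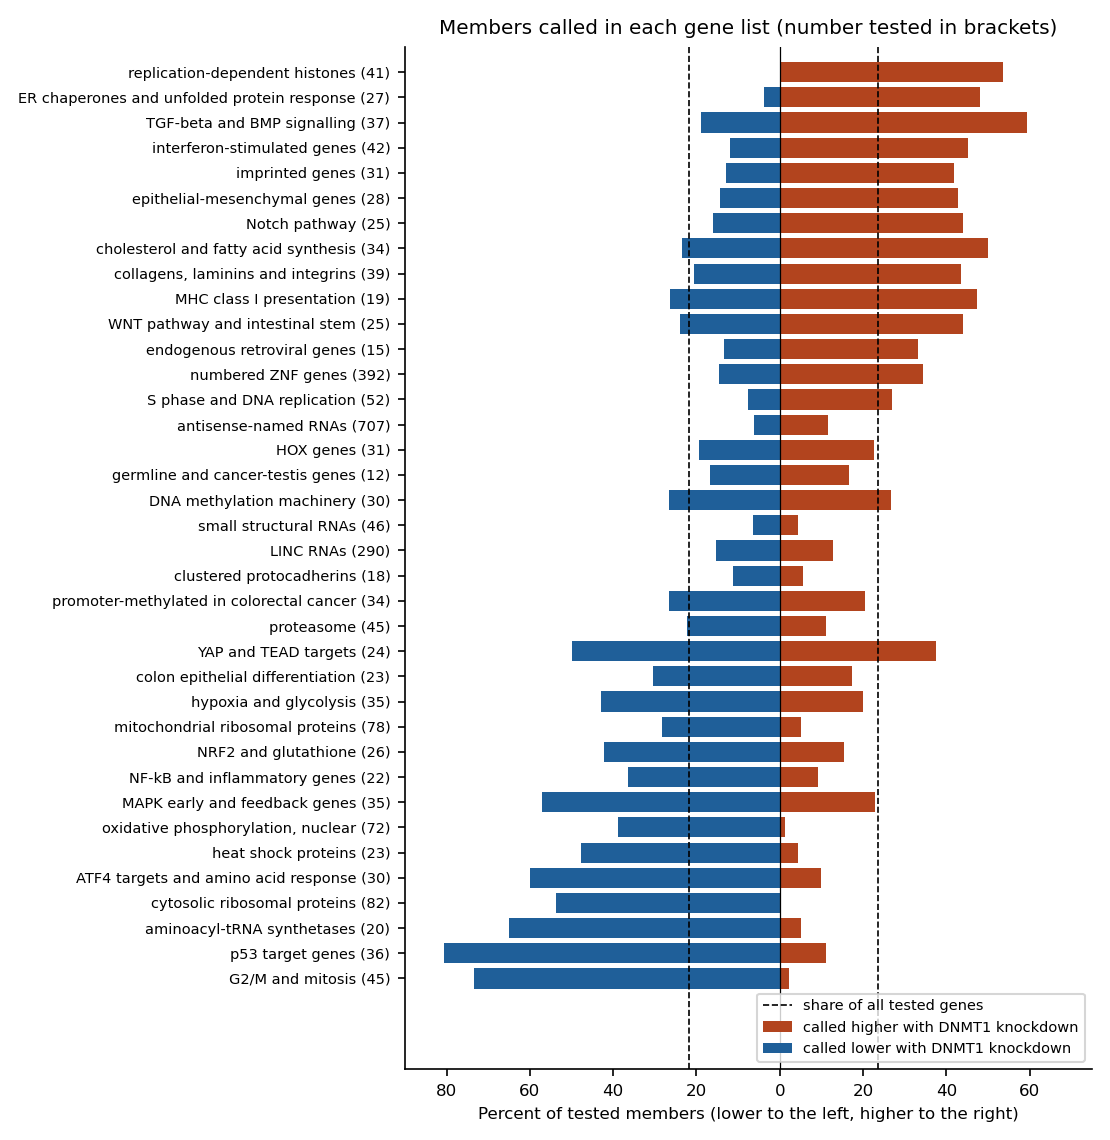
Bars give, for each gene list, the percent of tested members called lower (left) and higher (right) with DNMT1 knockdown, with the number tested in brackets. Dashed lines mark the shares of all tested genes, 21.9% lower and 23.5% higher. The p53, G2/M and ribosomal protein lists reach far to the left, and the TGF-beta and histone lists to the right.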

How the data were processed

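Total RNA was sequenced after rRNA depletion in 9 libraries, and the 6 of the knockdowns entered the test. Counts of reads by gene symbol, not scaled, were deposited as a single table with 0 columns lacking a sample. STAR, featureCounts, DESeq2 and the build GRCh38 (hg38) are named in the submitters' processing notes. No version, annotation or strand setting is given in the sources used here, which leaves the values of overlapping, antisense and near-identical genes uncertain.

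The fit used edgeR 4.0.16 in R 4.3.3, with filterByExpr by group, TMM scaling and the quasi-likelihood test (common biological coefficient of variation 3.05%, 4 residual and 22.9 prior degrees of freedom), with Benjamini-Hochberg adjustment over all 16475 tested genes and calls below 0.05. Every adjusted p is from this fit unless another test is named. Log2 differences are DNMT1 knockdown minus DNMT3B knockdown, with standard errors, and ± after a CPM is an SD over 3 libraries. CPM are of the TMM-scaled library size, with Control put on the same scale. DESeq2 1.42.0 and limma-voom (limma 3.58.1) were alternatives, beside other scalings, filters, thinning, a replicate block, a fit of all 9 libraries and leaving out each library. The script was tested on simulated data.

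Groups came from the labels. The genes named by rule were the 3 methyltransferases, the 10 largest differences per direction (called, at least 2 CPM in the higher group, no overlap), the 6 largest per direction with a mean of at least 50 CPM, and up to 3 called members per direction with the smallest adjusted p in each list with at least 3 called. ANLN was chosen after its values were seen. The comparison and lists were chosen with earlier results of these data known. Lists are described by counts and medians, with no set test, and some share members. Gene coordinates (99.1% of tested symbols matched) and promoter windows (77.4%) are from RefSeq GRCh38.p14. A planned description of promoter CpG content was void, since windows covered 79.3% of the genes at least 2-fold higher and 67.7% of those at least 2-fold lower, under the 80% set as the minimum. Some genes that the rule names are not reported here.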

Additional observations from a re-analysis of the deposited data

How the results depend on the processing

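The 7482 calls stood at 5918 with DESeq2, 7453 with limma-voom, 7504 with DESeq2 size factors in edgeR and 7426 without TMM, and the share of called genes that were higher ranged from 50.3 to 54.3% over all settings. The count of at least 2-fold differences, 288, depended on the filter: 467 with none, 181 with at least 1 CPM in 3 libraries and 88 with a mean of at least 2 CPM. Leaving out 1 library gave 6472 to 7013 calls, 3412 to 3684 higher and 3060 to 3373 lower, and 330 to 356 at least 2-fold. The mean Control level was between the knockdowns for 52.4% of called genes and for 65.3% of those at least 2-fold apart. With the replicate block 7216 genes were called. The shared numbers did not pair the libraries: same-numbered deviations correlated at -0.0652, -0.0093 and 0.0156 across genes, and not every library correlated best with its own number. Of 226 named genes, 208 kept their call in each setting in which they were tested (3801 pairs of gene and setting) and 0 reversed. Filters left some untested in a setting, such as IFI27 and HKDC1 at a mean of at least 2 CPM. HOX, colon differentiation, antisense and LINC counts moved by over 1.5 times with DESeq2 or without single libraries, and the cause was not tested. The CpG alternative was not run. At 0.116 to 0.16 CPM per 3 counts, differences in genes below about 1 CPM rest on few counts.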

Other observations

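Calls by gene class were as follows, without regard to level. Of 14063 tested protein-coding genes 25.5% were higher and 23.7% lower with DNMT1 knockdown, and of 1727 long non-coding RNAs 11.6% and 10.5%. In the antisense-named list 81 of 707 were higher (11.5%) and 43 lower (6.08%), 40 and 20 with DESeq2. LYPLAL1-AS1 was at 5.52, 5.28 and 5.16 CPM with DNMT1 knockdown and 2.38, 2.71 and 2.46 CPM with DNMT3B knockdown (2.13-fold, adjusted p = 4.82e-08), against a Control mean of 0.144 CPM, and such values are uncertain where strand was not used in counting. In the LINC list 37 of 290 were higher (12.8%) and 44 lower (15.2%), 22 and 23 with DESeq2. LINC00887 was at 0.329, 0.767 and 0.374 CPM against 2.05, 2 and 1.69 CPM, 3.87-fold lower. LINC00673 was at 29.2 ± 0.16 against 19.5 ± 1.27 CPM, 1.49-fold higher.

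HOX genes, which set position along the body axis, were higher for 7 of 31 tested members and lower for 6, near the shares of all tested genes (23.5% and 21.9%). HOXB8 (1.37-fold) and HOXA13 (1.30-fold) were higher. DESeq2 called 4 higher and 3 lower, the same numbers as without DNMT3B knockdown replicate 3, and 2 were lower without DNMT1 knockdown replicate 1. Colon differentiation genes were higher for 4 of 23 (17.4%) and lower for 7 (30.4%). The lower count was 3 without DNMT1 knockdown replicate 3 and 4 without DNMT3B knockdown replicate 1. CA2, the carbonic anhydrase of absorptive cells, was at 20.2, 21.1 and 18.8 CPM against 29.8, 35.9 and 31.3 CPM, 1.60-fold lower. DMRT1, a testis transcription factor gene, was at 0.741, 1.11 and 1.12 CPM against 2.71, 2.6 and 2.42 CPM, 2.59-fold lower, with 0.78 CPM in Control.

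More genes had a count in the DNMT3B knockdown libraries. After thinning each library to 18.8 M counts, 19741, 19666 and 19686 symbols had at least 1 count with DNMT1 knockdown and 20083, 20095 and 20098 with DNMT3B knockdown, with no overlap. ASXL3, a Polycomb-associated gene chosen after its values were seen, had 1 count over the 3 DNMT1 knockdown libraries, 72 over the 3 DNMT3B knockdown libraries and 23 over the Control libraries. The ratio of its scaled counts, DNMT3B over DNMT1 knockdown, was 75.1 with an exact 95% counting interval of 13.1 to 3010, which covers counting error only. Grouped by transcript length into 5 classes of about 2755 genes, the longest class had 30.4% called higher and 24.8% lower, and its median log2 difference was 0.00143 beside -0.0128 to -0.00436 in the others. The part of transcript length in the results was not tested.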
